A study of Arabidopsis thaliana with 48 samples.

Results

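UGT72 is a family of plant glucosyltransferases that act on phenols. Its members here were 8 Arabidopsis thaliana genes chosen by gene identifier out of the 33602 genes counted. They are UGT72B1 (AT4G01070), the UGT72B relatives AT1G01390 and UGT72B3 (AT1G01420), AT4G36770 of the UGT72C group, AT2G18570 of the UGT72D group, and UGT72E1 (AT3G50740), UGT72E2 (AT5G66690) and UGT72E3 (AT5G26310). Of the 8 genes, 7 had enough reads to be tested, and AT4G36770 did not.

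UGT72 enzymes move glucose from UDP-glucose onto the hydroxyl group of a phenol, which makes the product more soluble and less reactive and lets it be stored in the vacuole. UGT72B1 conjugates foreign phenols such as chlorophenols, joins glucose to chlorinated anilines, and also acts on monolignols, the alcohols from which lignin is built. UGT72E1, UGT72E2 and UGT72E3 glucosylate monolignols and their aldehydes, and UGT72E2 is the main enzyme behind monolignol glucosides in light-grown roots.

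Whole Col-0 seedlings, 7 days old and raised in liquid Murashige-Skoog medium with sucrose, received 5 µM of 2,6-dimethoxy-1,4-benzoquinone (DMBQ), a quinone related to the breakdown products of lignin phenols, or an equal volume of its solvent DMSO. WT here is a line that expresses the calcium reporter aequorin, and card1 is the card1-2 mutant in that same aequorin background. CARD1 (AT5G49760) encodes a leucine-rich repeat receptor kinase. Each genotype and agent was sampled at 0, 0.5, 1 and 6 h with 3 libraries a group, giving 16 groups and 48 libraries. Whether the 3 libraries of a group came from 3 separate cultures is not in the labels, and p-values below therefore refer to the spread among libraries, part or all of which may be technical. In RNA from whole seedlings, a lower level from fewer cells of one type and a lower level from less RNA per cell cannot be told apart.

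Each of the 8 genes had a single exon in the longest annotated transcript. UGT72B1 lies at chr4:461513-463556 and UGT72E1 at chr3:18855043-18857040, both on the minus strand. UGT72E2 lies at chr5:26625049-26626822 and UGT72E3 at chr5:9234600-9236408, both on the plus strand. AT1G01390 (chr1:148013-149848) and UGT72B3 (chr1:154367-156178) are neighbours on the minus strand, AT4G36770 (chr4:17330146-17331697) is on the minus strand, and AT2G18570 (chr2:8063023-8065015) is on the plus strand. These positions are from the RefSeq annotation of TAIR10.1. The 132 coding bases below, read 5′ to 3′ on the coding strand, encode the plant glucosyltransferase signature that holds the sugar donor. They are shown because the genes with the most alike signature did not share the response to DMBQ, and because they show how far the reads of close relatives can be told apart. Capitals mark bases that differ from UGT72B1.
UGT72B1 (chr4:462134-462265, minus strand): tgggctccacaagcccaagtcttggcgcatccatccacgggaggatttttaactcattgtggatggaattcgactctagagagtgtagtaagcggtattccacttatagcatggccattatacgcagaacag
AT1G01390 (chr1:148595-148726, minus strand): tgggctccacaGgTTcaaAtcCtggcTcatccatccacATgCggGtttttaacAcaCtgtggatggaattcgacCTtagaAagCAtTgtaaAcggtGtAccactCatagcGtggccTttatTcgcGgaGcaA
UGT72B3 (chr1:154845-154976, minus strand): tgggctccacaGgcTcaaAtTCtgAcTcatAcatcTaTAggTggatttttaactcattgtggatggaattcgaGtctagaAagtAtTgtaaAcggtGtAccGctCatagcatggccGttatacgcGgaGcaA
UGT72E1 (chr3:18855633-18855764, minus strand): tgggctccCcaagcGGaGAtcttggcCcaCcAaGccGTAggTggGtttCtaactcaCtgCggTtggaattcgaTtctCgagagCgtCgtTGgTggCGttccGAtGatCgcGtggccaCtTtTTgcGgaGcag
UGT72E2 (chr5:26626187-26626318, plus strand): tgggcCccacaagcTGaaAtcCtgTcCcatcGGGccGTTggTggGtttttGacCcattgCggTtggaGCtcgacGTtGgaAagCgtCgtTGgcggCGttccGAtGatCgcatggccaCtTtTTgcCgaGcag
UGT72E3 (chr5:9235771-9235902, plus strand): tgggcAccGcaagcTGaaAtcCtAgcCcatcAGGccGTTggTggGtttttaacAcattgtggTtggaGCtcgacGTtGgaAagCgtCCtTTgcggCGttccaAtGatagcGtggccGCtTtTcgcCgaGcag

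UGT72B3 differed from UGT72B1 at 25 of the 132 bases and AT1G01390 at 28, whereas UGT72E1 differed at 38, UGT72E3 at 40 and UGT72E2 at 41. Over the whole coding sequence UGT72B1 shared 76.3% of aligned bases with UGT72B3, and 57.0 to 60.0% with the UGT72C, UGT72D and UGT72E members. UGT72E2 and UGT72E3 were the closest pair, at 89.5%. Of all stretches of 50 bases in their transcripts, 1.28% of those of UGT72E2 and 1.25% of those of UGT72E3 also occurred elsewhere in the genome, and for each of the other 6 genes none did. Reads of UGT72E2 and UGT72E3 could thus be lost or swapped at a small share of positions. AT4G36770 overlaps 2 genes on the opposite strand, by 620 bases with the noncoding gene AT4G09385 and by 238 bases with AT4G36760, and the strand setting of the counting is not given in the sources used here.

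The 250 bases before the annotated start of UGT72B1, the gene that rose with DMBQ, and of UGT72B3, its closest relative, are printed for comparison (TAIR10.1, RefSeq, minus strand, 5′ to 3′). Capitals mark TGACG, the core bound by TGA factors, on either strand.
UGT72B1 (chr4:463557-463806): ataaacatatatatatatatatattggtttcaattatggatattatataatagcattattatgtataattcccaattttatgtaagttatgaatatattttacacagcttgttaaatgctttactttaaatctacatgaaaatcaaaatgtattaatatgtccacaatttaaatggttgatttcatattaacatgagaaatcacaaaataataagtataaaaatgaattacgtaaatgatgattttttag
UGT72B3 (chr1:156179-156428): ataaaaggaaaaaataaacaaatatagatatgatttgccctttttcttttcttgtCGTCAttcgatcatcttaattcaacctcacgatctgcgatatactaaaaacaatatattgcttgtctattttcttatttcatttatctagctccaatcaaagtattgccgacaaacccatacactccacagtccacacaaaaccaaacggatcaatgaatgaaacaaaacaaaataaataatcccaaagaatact

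The UGT72B1 stretch held no match to any of 4 motifs searched on both strands, namely TGACG, the W-box core TTGAC, the G-box CACGTG and the AC element ACCNANC, in which N is any base. UGT72B3 held 1 TGACG match beginning 195 bases before the start and 1 ACCNANC match beginning 54 bases before it. TGACG was also found for AT2G18570, where it overlapped a TTGAC match by 4 bases, and UGT72E1 held 1 TTGAC match. ACCNANC was found for AT1G01390, AT4G36770, AT2G18570 and UGT72E3, and for UGT72E2 none of the 4 motifs was found. Of 27443 such stretches in the genome, 18.6% held TGACG, 44.9% TTGAC, 6.5% CACGTG and 27.8% ACCNANC. A match or its absence describes these letters in this window and says nothing of a factor.

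Libraries held 4764682 to 14492051 gene counts (median 8489009), and levels are given as CPM, the count scaled to a common library size with TMM factors. CARD1 itself was counted at 66.7 to 99.8 CPM in the 24 WT libraries and at 17.7 to 34.7 CPM in the 24 card1 libraries, with no overlap. Some libraries stood apart by transcript length. Replicates 1 and 2 of card1 DMSO 0 h had fewer reads in long transcripts than the average library (Spearman rho of -0.512 and -0.494 between a gene's deviation and its length), while replicate 3 had a rho of 0.0816. All 3 libraries of WT DMBQ 0.5 h had a rho of -0.389 to -0.430, against -0.158 to -0.213 in WT DMSO 0.5 h. The UGT72 transcripts spanned 1479 to 2030 bases. Results that use these groups are given below with a correction for length and base composition or without the card1 libraries where that changed a call.

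Before any treatment time had passed, UGT72E1 had the highest level per transcript length. In WT DMSO at 0 h its level was 52.2 ± 11.8 CPM per kb (SD, n = 3), followed by UGT72B1 at 13.7 ± 2.37 CPM per kb and UGT72E2 at 6.78 ± 0.881 CPM per kb. AT2G18570 stood at 3.76 ± 0.418 CPM per kb, UGT72B3 at 2.22 ± 0.508, AT1G01390 at 1.15 ± 0.304 and UGT72E3 at 0.843 ± 0.223 CPM per kb. AT1G01390 and UGT72E3 overlapped at these depths, while each of the steps from UGT72E1 to UGT72B1, to UGT72E2, to AT2G18570 and to UGT72B3 was larger than the SDs of both neighbours together. AT4G36770 had 0 counts in the 3 libraries of that group, and 51 counts in all 48 libraries.

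UGT72B1 was the member that rose with DMBQ at every time after 0 h and in both genotypes. In WT given DMSO its level was 37.0, 28.6 and 32.0 CPM at 0.5 h, 16.8, 20.02 and 29.3 CPM at 1 h and 27.3, 27.7 and 31.1 CPM at 6 h. In WT given DMBQ it was 181, 166 and 207 CPM at 0.5 h, 370, 399 and 445 CPM at 1 h and 325, 379 and 374 CPM at 6 h. Every DMBQ library from 0.5 h on lay above every DMSO library, and the 9 DMBQ values did not overlap the 12 DMSO values of that genotype. The rise was 5.70-fold at 0.5 h (log2 fold change 2.51 ± 0.17 SE, 95% interval 2.16 to 2.86), 18.3-fold at 1 h (4.19 ± 0.18, 3.83 to 4.55) and 12.5-fold at 6 h (3.65 ± 0.18, 3.28 to 4.01). Adjusted p-values by edgeR's quasi-likelihood test with Benjamini-Hochberg adjustment over 19839 genes were 6.02e-13, 1.16e-19 and 1.56e-17 in turn. By size of rise UGT72B1 ranked 24th of those genes at 0.5 h and 9th at both 1 and 6 h. At 0 h its WT levels were 32.5, 22.8 and 28.0 CPM with DMSO and 28.9, 30.4 and 25.9 CPM with DMBQ, which overlapped (0.05 ± 0.18).

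In card1 UGT72B1 was also higher with DMBQ at each time after 0 h. Its card1 level with DMSO was 32.8, 37.1 and 37.5 CPM at 0.5 h, 20.02, 27.9 and 29.6 CPM at 1 h and 25.02, 28.1 and 30.6 CPM at 6 h. With DMBQ it was 131.3, 145 and 163 CPM at 0.5 h, 287, 317 and 468 CPM at 1 h and 299, 391 and 377 CPM at 6 h. Each DMBQ library again lay above each DMSO library, and replicate 3 of the 1 h group was the highest UGT72B1 value of the 48 libraries. The rise was 4.09-fold at 0.5 h (log2 fold change 2.03 ± 0.17, adjusted p 4.00e-10), 13.8-fold at 1 h (3.78 ± 0.18, 5.09e-18) and 12.7-fold at 6 h (3.67 ± 0.18, 6.99e-18) by the same test. It ranked 22nd, 20th and 5th by size of rise among all genes tested in card1. At 0 h the card1 libraries held 38.3, 33.6 and 29.7 CPM with DMSO and 35.5, 28.7 and 33.1 CPM with DMBQ, and the groups overlapped (-0.06 ± 0.17). The UGT72B1 rise at 0.5 h in WT was 2.50 to 2.53 over all other settings, apart from those that left out a single library. The length and base composition correction was among these settings.

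**Figure D1:**
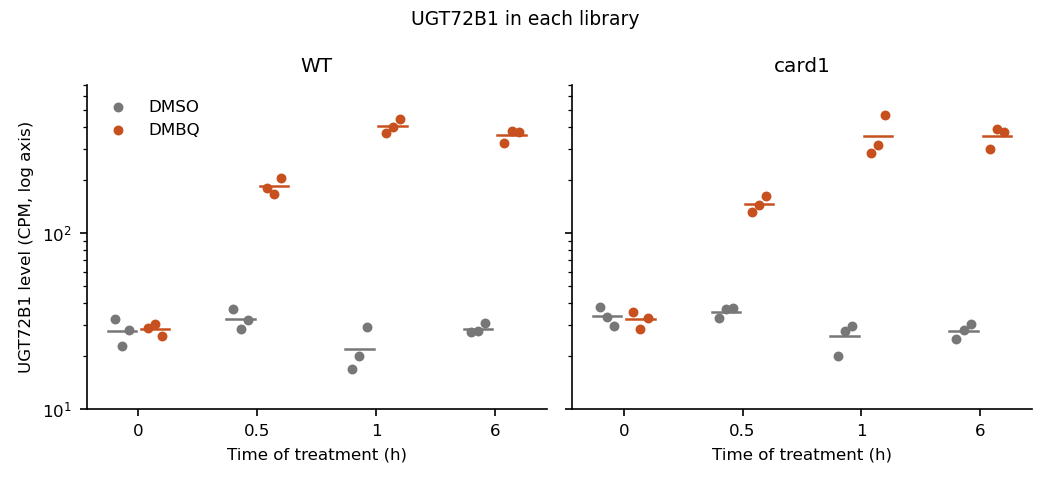
Level of UGT72B1 in CPM on a log axis against time of treatment in hours, for WT (left) and card1 (right), with 1 point per library and a bar at the mean of 3 libraries in grey for DMSO and orange for DMBQ. From 0.5 h on, every DMBQ library (131.3 to 468 CPM) stands above every DMSO library (16.8 to 37.5 CPM) of either genotype.

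Counted over the 7 tested members, 1 was called in WT at 0.5 h (2.45% of all genes tested were called in that comparison), 2 at 1 h (2.78%) and 1 at 6 h (1.22%). In card1 1 member was called at 0.5 h (0.151% of all genes), 1 at 1 h (1.18%) and 1 at 6 h (1.05%). UGT72B1 was the member called in all 6 comparisons, and UGT72E2, which was lower with DMBQ, was the second member in WT at 1 h. At 0 h edgeR called 0 of 7 members in WT (0.126% of all genes) and 0 of 7 in card1 (5.45% of all genes). None of the 7 had an unadjusted p under 0.05 at 0 h, and DESeq2 called 0 as well.

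**Figure D2:**
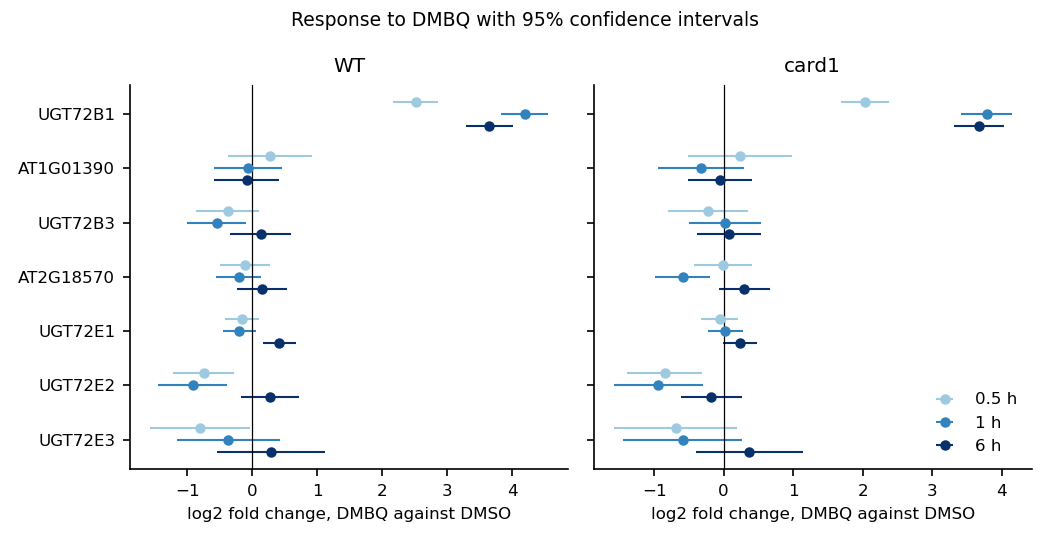
Log2 fold change of DMBQ against DMSO (x axis) for the 7 tested UGT72 genes (y axis) in WT (left) and card1 (right), with points for 0.5, 1 and 6 h in darkening blue and bars for 95% confidence intervals. UGT72B1 stands at 2.03 to 4.19, and each other gene lies between -0.94 and 0.42.

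The response of UGT72B1 grew from 0.5 to 1 h. Averaged over both genotypes, the log2 fold change at 1 h was 1.72 ± 0.17 above that at 0.5 h (adjusted p 2.82e-08, edgeR's quasi-likelihood test), and UGT72B1 was the 1 member called in that comparison, in which 0.328% of all genes were called. From 1 to 6 h its response differed by -0.33 ± 0.17 (95% interval -0.67 to 0.01, adjusted p 0.674). In that second comparison edgeR called 0 of 7 members (0.857% of all genes), 3 members had an unadjusted p under 0.05, and DESeq2 called 1, UGT72E2. UGT72E2 (0.97 ± 0.26, adjusted p 0.0623) was also called without WT DMSO 1 h replicate 1 (0.0429), WT DMBQ 1 h replicate 1 (0.0267), card1 DMSO 6 h replicate 3 (0.0365) or card1 DMBQ 1 h replicate 2 (0.0318). With a replicate block, UGT72E2 (0.0331) and UGT72E1 (0.41, 0.0441) were called, and in a fit of only the libraries compared UGT72E2 (0.00426), UGT72E1 (0.0415) and AT2G18570 (0.0372) were. In levels per transcript length UGT72B1 ranked 9025th of 32827 genes in WT DMSO at 1 h and 456th in WT DMBQ at 1 h, and 8137th and 569th in card1. It reached 199 ± 18.8 CPM per kb (SD, n = 3) in WT DMBQ at 1 h.

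Whether the response of any UGT72 gene differed between card1 and WT was tested directly. For UGT72B1 the card1 response minus the WT response was -0.48 ± 0.24 at 0.5 h (95% interval -0.96 to 0.01, adjusted p 0.494), -0.41 ± 0.24 at 1 h (-0.89 to 0.08, adjusted p 1.00) and 0.03 ± 0.24 at 6 h (-0.46 to 0.51, adjusted p 1.00) by edgeR's quasi-likelihood test. At 0.5 h the 3 DMBQ libraries of card1 (131.3 to 163 CPM) lay below the 3 of WT (166 to 207 CPM), and at 1 and 6 h the genotypes overlapped. The intervals leave room for a card1 response down to 0.96 lower on the log2 scale at 0.5 h, so these data do not show that the genotypes responded alike. No UGT72 member was called at 0 h (0.0101% of all genes), at 0.5, 1 or 6 h (0% of all genes each time) or in the joint test over the 3 times after 0 h (0%). At 0 h 1 of the 7 members, UGT72E2, had an unadjusted p under 0.05, at the other times none had, and DESeq2 called none in any of these tests. Among all genes, 2009 at 0.5 h, 460 at 1 h and 1041 at 6 h had an unadjusted p under 0.05, and DESeq2 called 9, 1 and 0. The joint test had 1189 such genes, and DESeq2 called 3.

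The 5 genes whose mean log2 level over the 16 groups was most like that of UGT72B1 were AT1G50590 (Pearson r 0.991), AT2G43120 (0.989), AIR12 (0.974), AT1G30700 (0.945) and GSTU8 (0.944). These correlations describe 16 group means that share libraries, and have no test. AIR12 encodes a membrane cytochrome b of the apoplast, and GSTU8 a tau-class glutathione transferase. AT2G43120, annotated with the name PIRIN2 as a synonym, went from 8.95 ± 1.84 CPM in WT DMSO at 1 h to 771 ± 32.2 CPM in WT DMBQ at 1 h (SD, n = 3). AT1G50590 went from 0.705 ± 0.409 to 125 ± 11.4 CPM between the same groups. AIR12 went from 15.1 ± 2.99 to 99.9 ± 5.73 CPM, AT1G30700 from 11.8 ± 1.57 to 124 ± 7.93 CPM and GSTU8 from 6.70 ± 0.779 to 22.0 ± 3.77 CPM. In each of the 5, the 3 DMBQ libraries at 1 h lay above the 3 DMSO libraries in WT. These groups were among the 16 used to pick the genes, so a rise with DMBQ follows from the choice and is no further result. In card1 at 0.5 h the response of AIR12 was 1.11 ± 0.17 (adjusted p 0.000245, edgeR's quasi-likelihood test) against 1.93 ± 0.16 in WT, and that of AT2G43120 was 3.89 ± 0.18 against 4.69 ± 0.18. For AT1G50590 it was 4.95 ± 0.25 against 5.66 ± 0.22, and for AT1G30700 1.95 ± 0.18 against 2.11 ± 0.18. None of these differences was called in edgeR's direct test of card1 minus WT at 0.5 h (0% of all genes). GSTU8 was not called at 0.5 h in either genotype (WT 0.86 ± 0.25, adjusted p 0.0606, card1 0.53 ± 0.29, adjusted p 1.00).

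The UGT72B genes closest to UGT72B1 in sequence were not called with DMBQ at any time in either genotype. AT1G01390 stood in WT at 0.945, 3.19 and 1.53 CPM with DMSO and 2.71, 2.98 and 1.80 CPM with DMBQ at 0.5 h, and at 3.21, 3.88 and 2.75 against 3.202, 3.30 and 2.85 CPM at 1 h. The groups overlapped at every time, and its log2 fold changes lay between -0.32 ± 0.31 and 0.27 ± 0.32. UGT72B3 stood in WT at 4.14, 3.61 and 4.66 CPM with DMSO and at 2.77, 2.74 and 3.00 CPM with DMBQ at 1 h. Its 3 DMBQ values were below its 3 DMSO values there (-0.55 ± 0.23, unadjusted p 0.0193, adjusted p 0.308 by edgeR's quasi-likelihood test). In card1 at 1 h UGT72B3 overlapped (0.02 ± 0.26), and the difference of the responses was 0.57 ± 0.34 (95% interval -0.12 to 1.26). These values rest on 7 to 95 reads per library for AT1G01390 and 13 to 67 for UGT72B3, and the 95% intervals of the 6 comparisons reached 0.98 at most, below the smallest rise of UGT72B1 (2.03).

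UGT72E2 was lower with DMBQ than with DMSO at 0.5 and 1 h. In WT at 0.5 h it stood at 14.4, 15.5 and 15.0 CPM with DMSO and 8.12, 9.58 and 9.18 CPM with DMBQ. In WT at 1 h it stood at 5.91, 8.12 and 8.17 CPM with DMSO and 5.09, 3.30 and 3.32 CPM with DMBQ. All 3 DMBQ libraries lay below all 3 DMSO libraries at both times. UGT72E2 fell in WT at 1 h by 0.92 ± 0.26 on the log2 scale (95% interval -1.45 to -0.39, adjusted p 0.0427, edgeR's quasi-likelihood test), while at 0.5 h its change of -0.75 ± 0.23 had an adjusted p of 0.0757. The 1 h call rested on single libraries, since the adjusted p was 0.165 without WT DMSO replicate 2, 0.191 without WT DMSO replicate 3, 0.233 without WT DMBQ replicate 2 and 0.218 without WT DMBQ replicate 3. It was also lost with no filter on low counts (0.0633) and with the length and base composition correction (0.0549).

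In card1 UGT72E2 stood at 13.1, 15.2 and 9.24 CPM with DMSO and 8.15, 8.94 and 4.05 CPM with DMBQ at 0.5 h, and at 6.07, 6.50 and 5.80 against 2.99, 4.43 and 2.08 CPM at 1 h. The DMBQ libraries again lay below the DMSO libraries at both times, with log2 fold changes of -0.85 ± 0.27 (adjusted p 0.491) and -0.94 ± 0.32 (adjusted p 0.262). The card1 response minus the WT response of UGT72E2 was -0.10 ± 0.35 at 0.5 h (95% interval -0.82 to 0.62) and -0.02 ± 0.40 at 1 h (-0.84 to 0.80). The mean of both genotypes, a comparison added after the data were seen, gave -0.80 ± 0.18 at 0.5 h (adjusted p 0.00960) and -0.93 ± 0.21 at 1 h (adjusted p 0.00293). UGT72E2 thus fell in that comparison at both times, but at 0.5 h the call was lost without card1 DMSO replicate 2 (0.0582) or card1 DMBQ replicate 3 (0.0618). At 6 h UGT72E2 overlapped in both genotypes, with 18.3, 16.2 and 16.5 against 17.6, 19.9 and 23.6 CPM in WT (0.27 ± 0.22) and 13.9, 14.8 and 19.4 against 13.9, 13.0 and 15.3 CPM in card1 (-0.18 ± 0.22). Over the means of both genotypes, 2 members were called at 0.5 h (1.31% of all genes) and 2 at 1 h (3.96%), UGT72B1 and UGT72E2, and 2 at 6 h (2.86%), UGT72B1 and UGT72E1.

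UGT72E3, the closest relative of UGT72E2, was read at 0.786 to 4.38 CPM. In WT at 0.5 h it stood at 2.70, 2.75 and 2.55 CPM with DMSO and 1.40, 1.17 and 1.99 CPM with DMBQ, with no overlap. That difference of -0.81 ± 0.38 was not called (unadjusted p 0.0404, adjusted p 0.273, edgeR's quasi-likelihood test), and UGT72E3 was not called at the other times either. Its intervals were wide, from -1.58 to -0.04 at 0.5 h in WT and from -1.16 to 0.42 at 1 h.

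Some root markers were lower with DMBQ at 0.5 and 1 h, when UGT72E2 was lower. The sum of all 10 root markers was also lower at 6 h, when UGT72E2 overlapped. At 0.5 h the summed level of 10 root marker genes was 262 to 393 CPM in WT DMSO and 235 to 258 CPM in WT DMBQ, while in card1 it overlapped (248 to 331 against 267 to 285 CPM). The sum was 251 to 334 CPM in WT DMSO and 221 to 242 CPM in WT DMBQ at 1 h, and 245 to 289 against 215 to 247 CPM in card1. Of the 10, EXPA7 (AT1G12560), an expansin of root hairs, and PRP3 (AT3G62680), a root hair wall protein, were called lower in WT at 0.5 and 1 h, and EXPA7 also in card1 at both times. Of all genes tested, 2.45 and 2.78% were called in WT at these times, and 0.151 and 1.18% in card1. In WT at 0.5 h neither call stood without DMSO replicate 2 (adjusted p 0.237 for EXPA7 and 0.139 for PRP3) or DMBQ replicate 1 (0.0975 and 0.0974), and that of PRP3 was also lost without DMBQ replicate 2 (0.0559) and in a fit of only the libraries compared (0.102). In WT at 1 h the PRP3 call was lost without DMSO replicate 2 (0.0694) or DMBQ replicate 2 (0.0557). In card1 the EXPA7 call at 0.5 h was lost without DMSO replicate 1 (0.333) or DMBQ replicate 3 (0.206) and in a fit of only the libraries compared (0.401), and that at 1 h without DMSO replicate 1 (0.0817). At 1 h in WT EXPA7 fell by 1.06 ± 0.18 and PRP3 by 1.08 ± 0.25 on the log2 scale. The endodermis genes CASP1 (-0.22 ± 0.15) and SCR (-0.03 ± 0.07) were not called there. None of the 5 shoot photosynthesis markers was called with DMBQ against DMSO at 0.5, 1 or 6 h in either genotype. At 6 h 1.22% of all genes were called in WT and 1.05% in card1. None of the marker genes was at 0 in all libraries. At 6 h the root marker sum was 253 to 373 CPM in WT DMSO and 199 to 206 CPM in WT DMBQ. In card1 it was 249 to 286 against 192 to 223 CPM. The part of root markers in the UGT72E2 result was not tested.

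The 5 genes most like UGT72E2 over the 16 group means were AT4G36640 (Pearson r 0.965), BAT1 (0.953), AT1G13830 (0.941), MYB92 (0.934) and AT3G10190 (0.930), again with no test. BAT1 encodes an acyltransferase that acts on brassinosteroids, and MYB92 is a transcription factor of suberin formation. MYB92 was lower with DMBQ in WT at 1 h, at 4.04 ± 0.463 against 7.18 ± 0.296 CPM (-0.83 ± 0.18, adjusted p 0.00367 by edgeR's quasi-likelihood test). These groups were among the 16 used to pick MYB92, so that p-value is not independent of the choice and adds no support. BAT1 stood at 13.2 ± 2.27 CPM with DMSO and 9.62 ± 2.71 CPM with DMBQ in the same groups and was not called (-0.46 ± 0.21, adjusted p 0.438). Among the members themselves, UGT72E2 was most like UGT72B3 (0.771) and UGT72E3 (0.678), and UGT72B1 had correlations of -0.37 to 0.26 with the other 6.

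UGT72E1, the most abundant member in DMSO, was higher with DMBQ at 6 h but passed the test only over both genotypes. In WT at 6 h it stood at 173, 208 and 181 CPM with DMSO and 243, 262 and 246 CPM with DMBQ, so that all DMBQ libraries were higher. In card1 at 6 h it stood at 201, 180 and 239 against 218, 253 and 257 CPM, which overlapped. The log2 fold change was 0.42 ± 0.12 in WT (95% interval 0.17 to 0.66, adjusted p 0.0985) and 0.23 ± 0.12 in card1 (-0.01 to 0.48, adjusted p 0.528) by edgeR's quasi-likelihood test, and the responses differed by -0.18 ± 0.17. The WT value was called with the replicate number as a block (adjusted p 0.0290) and in a fit of only the libraries compared (0.000229). In WT at 6 h, however, the deviations of DMBQ and DMSO libraries with the same replicate number had correlations of only -0.0339 to 0.00227. UGT72E1 rose by 0.32 ± 0.09 in the mean of both genotypes (adjusted p 0.0254). That call was lost without any of 7 of the 12 libraries, namely WT DMSO replicate 1 (0.0857) or 3 (0.0690), WT DMBQ replicate 2 (0.0690), card1 DMSO replicate 1 (0.0668) or 2 (0.113) and card1 DMBQ replicate 2 (0.0667) or 3 (0.0804). At 0.5 and 1 h the UGT72E1 groups overlapped in both genotypes, with changes of -0.20 to 0.03.

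AT2G18570 was not called with DMBQ in either genotype at any time. In card1 at 1 h it stood at 10.6, 8.45 and 8.03 CPM with DMSO and 6.20, 5.99 and 5.69 CPM with DMBQ, so that the groups did not overlap (-0.59 ± 0.20, adjusted p 0.212). In WT at 1 h it stood at 10.13, 7.30 and 7.79 against 8.59, 6.19 and 7.03 CPM, which overlapped (-0.21 ± 0.17). The mean of both genotypes at 1 h was -0.40 ± 0.13 (adjusted p 0.0806), and it was called with a replicate block (0.0428), with that block and the length and base composition correction (0.0444) and without WT DMBQ replicate 1 (0.0338). AT2G18560, a neighbour and relative of AT2G18570 that is not among the 8 (83.7% of coding bases shared), was not called either, with changes of -0.26 ± 0.18 to 0.23 ± 0.20. AT4G36770 had 1, 3 and 2 counts in WT DMSO and 7, 2 and 3 counts in WT DMBQ at 6 h, and 3, 6 and 1 against 4, 3 and 1 counts in card1, and was at 0 counts in 25 of 48 libraries. A difference in AT4G36770 was not detectable at this depth.

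**Figure D3:**
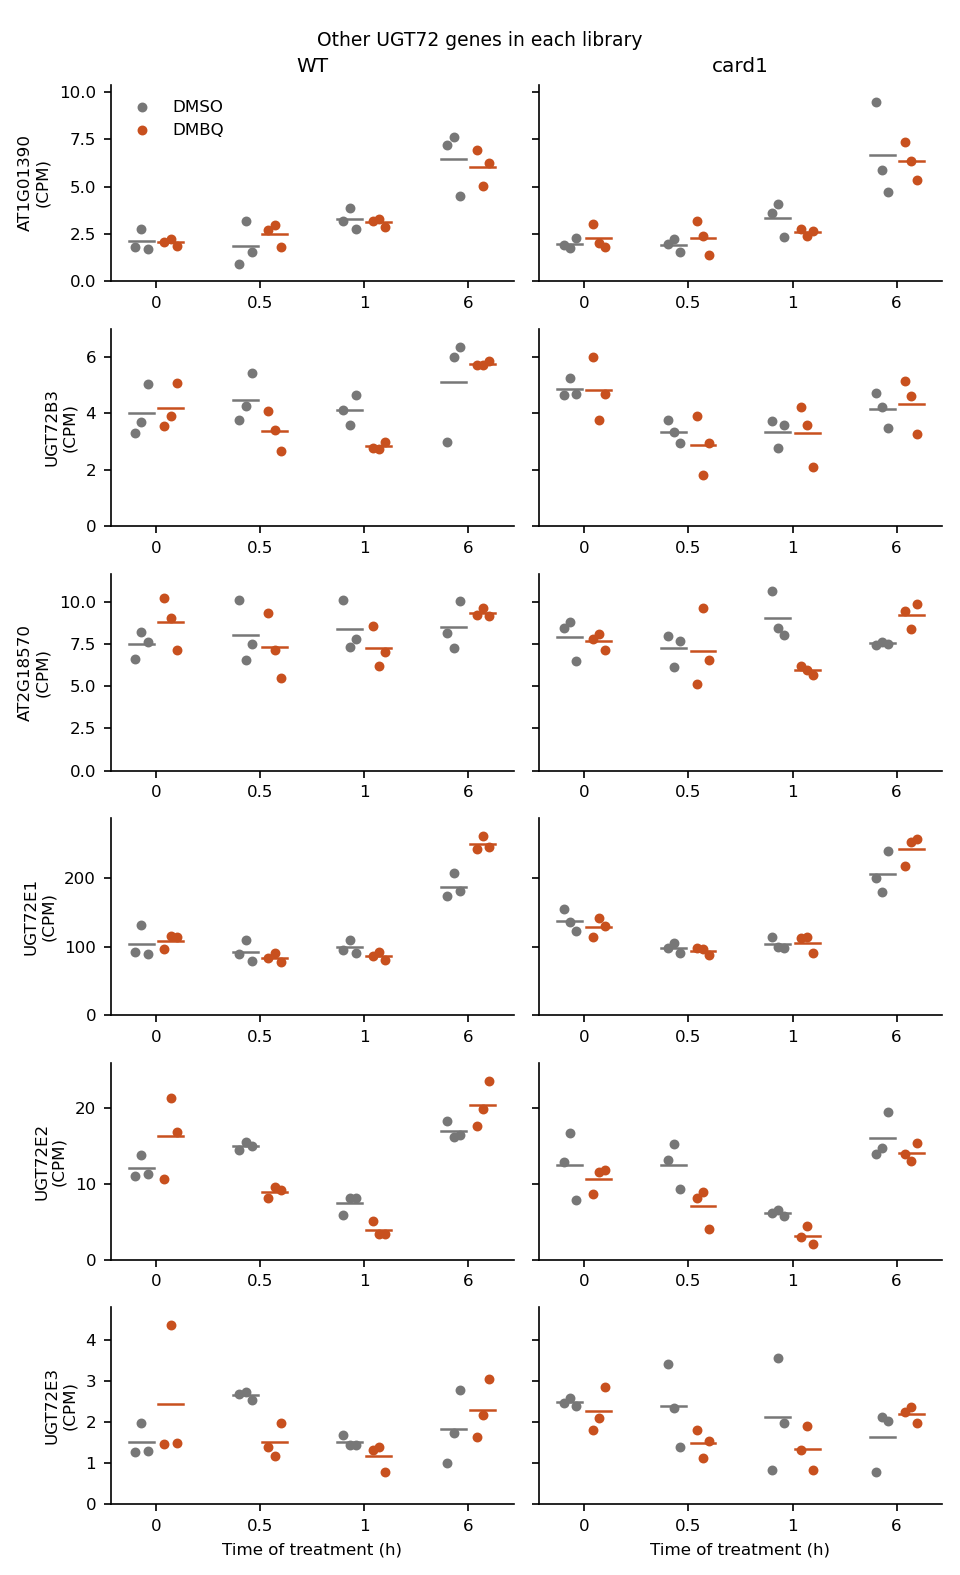
Level in CPM, on linear axes from 0, against time of treatment in hours for AT1G01390, UGT72B3, AT2G18570, UGT72E1, UGT72E2 and UGT72E3 (rows) in WT (left) and card1 (right), with 1 point per library and a bar at the mean, grey for DMSO and orange for DMBQ. UGT72E2 is lower with DMBQ at 0.5 and 1 h in both genotypes, and UGT72E1 and AT1G01390 are higher at 6 h than at 0 h with either agent.

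The rise of UGT72B1 changed which of the 8 genes made up most of their summed transcripts. AT2G18560, a UGT72 gene not among the 8, is not in the sum. It had 3695 counts over all libraries, against 3466 for AT2G18570. Summed over the 8 genes per transcript length, the level in WT with DMSO was 80.6 ± 11.3 CPM per kb at 0 h, 79.9 ± 7.11 at 0.5 h, 73.8 ± 4.42 at 1 h and 129 ± 9.26 CPM per kb at 6 h (SD, n = 3). With DMBQ the WT sum was 86.9 ± 8.87, 146 ± 6.09, 252 ± 16.2 and 326 ± 19.3 CPM per kb at the same times. In card1 the sum with DMSO was 102 ± 12.2, 81.6 ± 5.46, 77.6 ± 2.47 and 137 ± 16.5 CPM per kb, and with DMBQ 95.5 ± 5.35, 130.6 ± 4.41, 238 ± 39.8 and 317 ± 33.9 CPM per kb. With DMSO UGT72E1 made up 57.8 to 75.3% of the sum (group means) and UGT72B1 10.07 to 21.7%. With DMBQ UGT72B1 made up 62.3 ± 4.35% at 0.5 h, 78.9 ± 2.42% at 1 h and 54.2 ± 1.38% at 6 h in WT, and 55.2 ± 4.53%, 73.3 ± 7.23% and 55.2 ± 1.93% in card1. UGT72E1 then made up 17.2 ± 1.91% in WT and 22.9 ± 6.09% in card1 at 1 h. These shares are descriptions and were not tested.

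**Figure D4:**
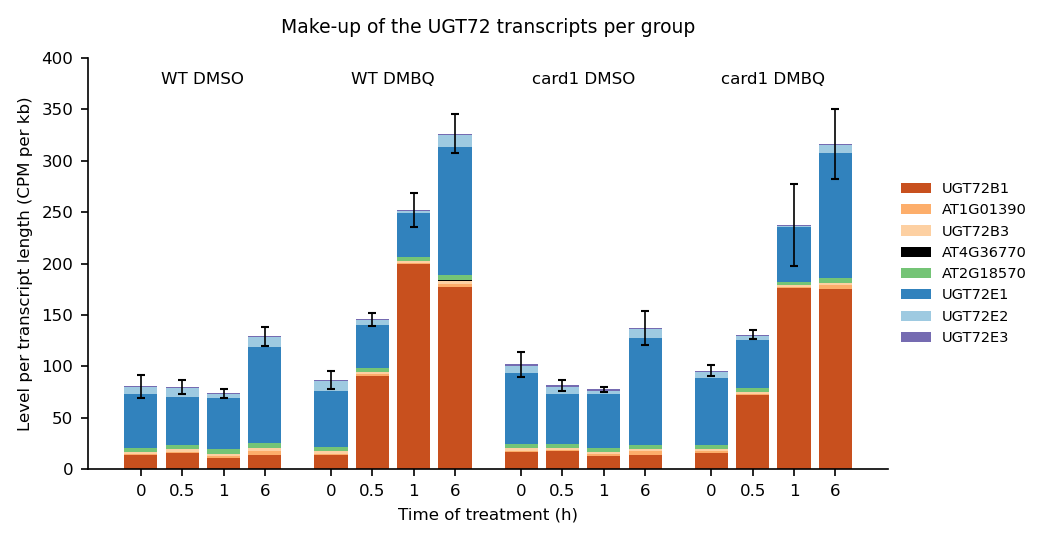
Stacked bars of the mean level per transcript length in CPM per kb of each of the 8 UGT72 genes, for the 4 times (x axis, hours) in WT DMSO, WT DMBQ, card1 DMSO and card1 DMBQ, with error bars for the SD of the sum over 3 libraries. The sum reaches 326 CPM per kb in WT DMBQ at 6 h, and UGT72B1 (dark orange) is the largest segment in each DMBQ group from 0.5 h on.

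With DMSO alone, averaged over both genotypes, several members moved with time. At 6 h against 0 h 3 members were called (50% of all genes tested were called). AT1G01390 rose 3.13-fold (1.64 ± 0.21, adjusted p 7.61e-09), from 1.73 to 2.75 CPM in WT at 0 h to 4.50 to 7.63 CPM at 6 h, with no overlap. UGT72E1 rose 1.64-fold (0.71 ± 0.09, adjusted p 1.04e-08), from 89.3 to 131.5 CPM in WT at 0 h to 173 to 208 CPM at 6 h, with no overlap. UGT72E2 rose by 0.41 ± 0.16 (adjusted p 0.0361), which was lost with no filter on low counts (0.0516) and without WT DMSO 0 h replicate 1 (0.0710) or 3 (0.0705), WT DMSO 6 h replicate 1 (0.0667), card1 DMSO 0 h replicate 1 (0.0520) or 3 (0.133) or card1 DMSO 6 h replicate 3 (0.108). Without both card1 DMSO 0 h libraries with the length trend, the same 3 genes were called, at 1.54 for AT1G01390, 0.79 for UGT72E1 and 0.75 for UGT72E2. UGT72B1 did not differ between 6 and 0 h in DMSO beyond its error (-0.10 ± 0.13).

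At 1 h against 0 h in DMSO 4 members were called (36.3% of all genes), and at 0.5 h 1 (17.3%). UGT72E2 fell at 1 h by 0.88 ± 0.18 on the log2 scale (adjusted p 0.000173, edgeR's quasi-likelihood test), from 11.0, 13.8 and 11.3 CPM in WT at 0 h to the values given above. UGT72B1 fell by 0.34 ± 0.13 (0.0358), UGT72E1 fell by 0.25 ± 0.09 (0.0266) and AT1G01390 rose by 0.65 ± 0.22 (0.0198). At 0.5 h UGT72E1 fell by 0.33 ± 0.09 (0.00705), a call lost without WT DMSO 0 h replicate 2 (0.0710). None of these 5 calls stood without both length-trended card1 DMSO 0 h libraries, where UGT72E2 at 1 h stood at -0.53 (adjusted p 0.0612), UGT72B1 at -0.25 (0.316), UGT72E1 at -0.16 (0.323) and AT1G01390 at 0.54 (0.161), and UGT72E1 at 0.5 h at -0.25 (0.134). Of the 4 calls at 1 h, those of UGT72B1, UGT72E1 and AT1G01390 were also lost without 7, 4 and 4 single libraries each. In WT DMSO UGT72E2 went from 14.4, 15.5 and 15.0 CPM at 0.5 h to 5.91, 8.12 and 8.17 CPM at 1 h, with no overlap. These groups do not hold those card1 libraries, but the drop starts from 0.5 h rather than 0 h and was not tested. All 3 libraries of WT DMSO 0.5 h also had a length trend (rho -0.158 to -0.213, against 0.0234 to 0.0501 in WT DMSO 1 h).

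Between the genotypes in DMSO, averaged over the 4 times, 1 of 7 members was called where 25.7% of all genes were. UGT72E1 was higher in card1 by 0.17 ± 0.06 (adjusted p 0.0430), and the call was lost without any of 12 of the 24 libraries (adjusted p 0.0604 to 0.1002) and without both length-trended libraries (0.13, adjusted p 0.197). UGT72B1 (0.16 ± 0.09) and UGT72E2 (-0.14 ± 0.12) were not called. The 5 shoot photosynthesis markers summed to 18604 to 26427 CPM in the card1 DMSO libraries and to 12849 to 17914 CPM in the WT DMSO libraries, and the part of shoot RNA in this comparison was not tested.

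The genes that make and use the substrates of UGT72 enzymes were described from lists of the phenylpropanoid pathway. In that pathway phenylalanine is turned into cinnamic acids by the entry enzymes, the monolignol branch reduces these to alcohols, glucosyltransferases and glucosidases add and remove glucose, and laccases and peroxidases join the monolignols into lignin. Of the 10 monolignol branch genes, all tested, 1 was called higher in WT at 0.5 h, 1 at 1 h and 8 at 6 h, and in card1 0, 1 and 6. None was called lower. Of all genes tested, 2.45, 2.78 and 1.22% were called in WT at these times, and 0.151, 1.18 and 1.05% in card1. The median log2 fold change at 6 h was 0.47 in WT and 0.45 in card1, where the median of all genes was -0.003 and -0.009. With DMSO alone, averaged over both genotypes, 7 of the 10 were called lower at 6 h than at 0 h (median -0.64, 50% of all genes called). No other settings were run for that DMSO count. A rise here thus means a higher level with DMBQ than with DMSO at the same time. CAD5 (AT4G34230), an alcohol dehydrogenase of the last reduction step, went from 25.5 ± 3.02 to 123 ± 11.4 CPM in WT at 6 h and rose by 1.35 ± 0.16 at 1 h and 2.28 ± 0.17 at 6 h (adjusted p 7.75e-08 and 1.66e-12). In card1 CAD5 rose by 1.14 ± 0.16 and 2.24 ± 0.16 (1.16e-05 and 1.13e-12). At 0.5 h CAD5 rose in WT by 0.69 ± 0.16 (0.0160), a call lost without WT DMSO replicate 2 (0.122) or WT DMBQ replicate 1 (0.153). At 6 h HCT, the hydroxycinnamoyl transferase, rose by 0.71 ± 0.11 in WT and 0.81 ± 0.10 in card1, CCoAOMT1, a methyltransferase, by 0.57 ± 0.11 and 0.62 ± 0.10, and CSE (AT1G52760, LysoPL2), an esterase, by 0.35 ± 0.09 and 0.43 ± 0.08. The CSE call was lost in WT without DMSO replicate 1 (0.154) or 3 (0.0898) or DMBQ replicate 1 (0.136) or 3 (0.139), and in card1 without DMSO replicate 2 (0.0744). The count of 8 in WT at 6 h fell to 3 to 5 when any 1 of the 6 libraries was left out, and the count of 6 in card1 to 4 to 6.

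Of the 9 phenylpropanoid entry genes, 0, 1 and 4 were called higher in WT at 0.5, 1 and 6 h, and 0, 1 and 5 in card1, with medians at 6 h of 0.47 and 0.65. Of all genes tested, 2.45, 2.78 and 1.22% were called in WT at these times, and 0.151, 1.18 and 1.05% in card1. With DMSO alone, averaged over both genotypes, 5 of the 9 were called lower and 2 higher at 6 h than at 0 h (median -0.33). In that DMSO comparison 50% of all genes were called, and no other settings were run for the list. PAL1, a phenylalanine ammonia lyase, went from 91.6 ± 6.07 to 299 ± 41.2 CPM in WT at 6 h, and rose by 1.14 ± 0.16 at 1 h (adjusted p 8.26e-06) and 1.70 ± 0.17 at 6 h (9.78e-09). In card1 PAL1 rose by 0.83 ± 0.17 (0.00245) and 1.83 ± 0.17 (1.09e-09). PAL4 rose in card1 at 6 h by 1.37 ± 0.15 (2.28e-08) and was not called in WT (0.47 ± 0.15, 0.153). The direct test of card1 minus WT at 6 h called none of the 9 entry genes (0% of all genes), so a difference between genotypes was not shown. C4H, the cinnamate hydroxylase, rose by 0.68 ± 0.12 in both genotypes at 6 h, and 4CL1, a coumarate CoA ligase, by 0.85 ± 0.12 in WT and 0.94 ± 0.12 in card1. With DMBQ in WT, the libraries of PAL1 and of CAD5 were all higher at 6 h than at 1 h, while those of UGT72B1 overlapped. The means at 1 and 6 h were 211 ± 30.8 and 299 ± 41.2 CPM for PAL1, 71.2 ± 13.3 and 123 ± 11.4 CPM for CAD5, and 405 ± 38.2 and 359 ± 29.6 CPM for UGT72B1. These are levels with DMBQ only. In the response at 6 h minus 1 h, averaged over both genotypes, 4 of the 9 entry genes were called higher and none lower. So were 5 of the 10 monolignol branch genes, with none lower. UGT72B1 was not called in that comparison, where 0.857% of all genes were. No other settings were run for these counts.

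The genes of hydroxycinnamate side routes (4 of 5 tested) and the monolignol glucosidases, which remove the glucose that UGT72E enzymes add (BGLU45 and BGLU46 of 3 tested), had no call in the 6 comparisons. Among the 7 tested of 8 genes of monolignol export and polymerisation none was called higher after 0 h, and LAC17 (AT5G60020), a lignin laccase, was called lower in WT at 6 h (-0.86 ± 0.23, adjusted p 0.0477). That LAC17 call was lost without any 1 of 5 of the 6 libraries, namely DMSO replicates 1 (0.133), 2 (0.190) and 3 (0.133) and DMBQ replicates 1 (0.191) and 2 (0.358), and in 4 of 8 other settings, for example with no filter on low counts (0.0611). In the mean of both genotypes at 6 h, 3 of the 7 were called lower, where 2.86% of all genes were called. They were the laccases LAC17 (-0.53 ± 0.15, adjusted p 0.0496), LAC4 (AT2G38080, -0.45 ± 0.12, 0.0324) and LAC11 (AT5G03260, -0.85 ± 0.22, 0.0205), and no other settings were run for these 3 calls. Of the 4 tested of 5 MYB regulators, 1, 2 and 0 were called higher at 0.5, 1 and 6 h in each genotype, with medians of 0.92, 1.11 and 0.39 in WT and 0.83, 1.19 and 0.53 in card1. Of all genes tested, 2.45, 2.78 and 1.22% were called in WT at these times, and 0.151, 1.18 and 1.05% in card1. MYB63 (AT1G79180), an activator of lignin genes, rose from 1.47 ± 0.214 to 6.20 ± 0.684 CPM in WT at 1 h (2.07 ± 0.25, adjusted p 5.34e-08) and by 2.59 ± 0.33 in card1 (2.90e-07). At 0.5 h MYB63 rose by 1.58 ± 0.33 in WT (0.00410; 0.0554 without DMSO replicate 2) and 2.66 ± 0.50 in card1 (0.00466; 0.121 without DMBQ replicate 1). MYB58 (AT1G16490), its close relative, rose at 1 h by 2.32 ± 0.48 in WT (0.00153) and 2.45 ± 0.59 in card1 (0.0172), the latter lost without card1 DMSO replicate 1 (0.215) or 2 (0.0661) or DMBQ replicate 2 (0.0750). At 6 h neither MYB63 nor MYB58 was called.

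Some xylem markers were lower in WT at 6 h. The summed level of 6 xylem genes was 77.9 to 91.1 CPM in WT DMSO and 45.6 to 57.6 CPM in WT DMBQ at 6 h, and 62.3 to 91.8 against 62.4 to 78.0 CPM in card1. In WT at 6 h 4 of the 6 were called lower, the secondary wall cellulose synthases CESA4 (-0.99 ± 0.18) and CESA8 (IRX1, -0.80 ± 0.18) and the proteases XCP1 (-0.97 ± 0.22) and XCP2 (-0.55 ± 0.14), and in card1 none. Of all genes tested, 1.22% were called in WT and 1.05% in card1. The direct test of card1 minus WT at 6 h called none of the 6 (0% of all genes), so a difference between genotypes was not shown. In the mean of both genotypes at 6 h, 3 of the 6 were called lower (median -0.50, 2.86% of all genes called), and no other settings were run for that count. The count of 4 was 2 without WT DMSO replicate 1 or without WT DMBQ replicate 2. The summed root markers at 6 h were 253 to 373 CPM in WT DMSO and 199 to 206 CPM in WT DMBQ, and 249 to 286 against 192 to 223 CPM in card1. Of the 10 root markers, 1 was called lower and 0 higher in WT at 6 h, and none was called in card1. In the mean of both genotypes at 6 h, 1 of the 10 was called higher and 2 lower. The part of xylem or root markers in the 6 h results was not tested.

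**Figure D5:**
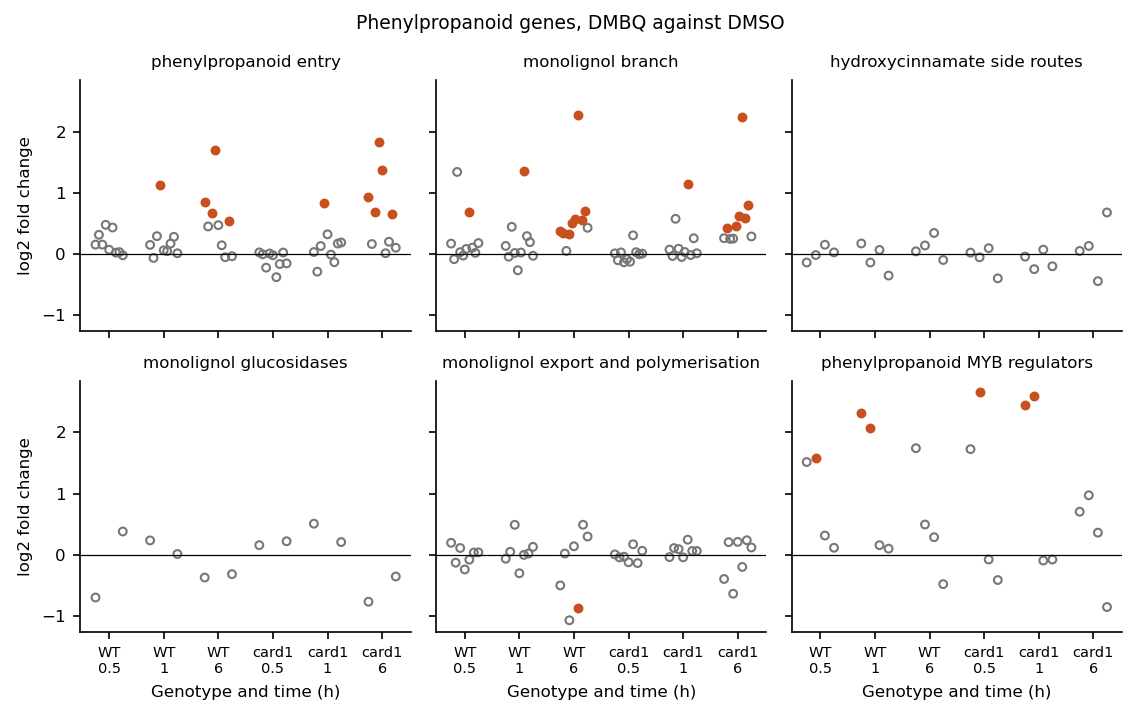
Log2 fold change of DMBQ against DMSO (y axis) for the tested genes of 6 phenylpropanoid lists (panels), by genotype and time in hours (x axis), with filled orange points for genes called at an adjusted p of 0.05 and open grey points for the rest. Filled points of the entry and monolignol panels gather at 6 h (4 and 8 in WT, 5 and 6 in card1), and those of the MYB panel at 0.5 and 1 h.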

How the data were processed

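RNA-seq counts per gene in 48 libraries were deposited by the authors as 1 table of raw counts. The tools that the submitters' processing notes name are HTSeq 0.6.1 and HISAT2 2.1.0, with TAIR10 as the build. Not given in the sources used here are the release of the annotation, any trimming and the strand option of the counting. The 5 rows that name no gene (13.6 to 20.7% of reads) were left out. From the deposited counts, edgeR 4.0.16 (R 4.3.3) was run with TMM factors, filterByExpr (minimum count 10), 1 model over 16 groups and the quasi-likelihood test, and p-values were adjusted by Benjamini-Hochberg over 19839 genes, called at 0.05. CPM is the TMM-scaled level, per kb of the longest annotated transcript where so stated. Likeness was Pearson's r of group mean log2 CPM (prior count 2). All 48 pairs of replicate libraries differed beyond counting error, with a ratio of chi-square to its degrees of freedom of 2.08 to 15.8, and each library was kept as its own replicate. DESeq2 1.42.0, other filters and factors, a replicate block, a length and base composition correction and each library left out were tried. Named genes were all 8 members, up to 4 genes of each pathway list by smallest adjusted p, and the 5 genes most like each called member; the marker genes, AT2G18560, SCR and CASP1 were named after their values were seen. The scripts were tested on simulated data. The members and lists were chosen with earlier results of these data known.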

Additional observations from a re-analysis of the deposited data

How the results depend on the processing

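UGT72B1 was called in each of the 6 DMBQ comparisons after 0 h under all 14 alternatives, with log2 fold changes of 2.50 to 2.53, 4.18 to 4.201 and 3.64 to 3.65 in WT at 0.5, 1 and 6 h over the settings and 2.40 to 2.61, 4.03 to 4.45 and 3.61 to 3.71 with 1 library left out. The other calls depended more on the processing. With a replicate block, 2 members were called in WT at 6 h in place of 1, and 2 in place of 0 in the response at 6 h minus 1 h (1 when the block went with the length and base composition correction). In a fit of only the libraries compared, 2 members were called in WT at 0.5 h, 2 in WT at 6 h, 3 in the response at 6 h minus 1 h, 0 in card1 against WT in DMSO, 0 in DMSO at 0.5 h and 2 in DMSO at 1 h. With no filter on low counts, and likewise with the length and base composition correction, 1 member was called in WT at 1 h and 0 in card1 against WT in DMSO. DESeq2 called 1 in the response at 6 h minus 1 h. Leaving out both length-trended card1 DMSO 0 h libraries, an alternative chosen after seeing the data like the mean of both genotypes, gave 0 in card1 against WT in DMSO, 0 in DMSO at 0.5 h and 0 in DMSO at 1 h. With 1 library left out the counts were 1 to 2 in WT at 1 h, 0 to 1 in the response at 6 h minus 1 h, 0 to 1 in card1 against WT in DMSO, 0 to 1, 2 to 4 and 2 to 3 in DMSO at 0.5, 1 and 6 h, and 1 to 2 in the mean of both genotypes at 0.5 and at 6 h and 2 to 3 at 1 h (3 also with the replicate block). No member count or member value changed direction while called, and the causes were not tested. Of 24 pairs of DMBQ and DMSO libraries with the same replicate number, 16 had deviations correlated above 0.1 (range -0.0339 to 0.327) and 17 correlated best with their own number. The limit for pairing was that every pair be above 0.1, so the block was not made the main design; as a hint from the data, all 3 pairs were above it in WT at 0 h and in card1 at 0, 0.5 and 1 h, where the block changed no call of a member. Calls over all genes moved by more than 1.5 times in many comparisons (as reported; range over the settings; range with 1 library left out). In WT they were 25 at 0 h (22 to 53; 0 to 24), 486 at 0.5 h (319 to 725; 126 to 393) and 243 at 6 h (232 to 764; 134 to 194). In card1 they were 1082 at 0 h (0 to 1557; 0 to 4067), 30 at 0.5 h (10 to 44; 16 to 35), 235 at 1 h (153 to 268; 160 to 226) and 209 at 6 h (192 to 339; 132 to 249). In DMSO they were 3429 at 0.5 h (2078 to 3870; 2849 to 4711) and 7209 at 1 h (4556 to 7588; 6217 to 8163), and in the mean of both genotypes 260 at 0.5 h (170 to 327; 139 to 261) and 568 at 6 h (531 to 914; 413 to 700). For card1 minus WT they were 2 at 0 h (0 to 105; 0 to 1549), 0 at 0.5 h (0 to 9; 0 to 63), 0 at 1 h (0 to 1; 0 to 0) and 0 in the joint test (0 to 3; 0 to 1). Depth limits AT4G36770 and UGT72E3 most.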
